A study of Mus musculus with 2 samples.

Results

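A set of 10 genes of BMP and TGF-beta signalling was examined for binding by Gata1, the zinc finger factor that drives red cell development: the ligands Bmp4 and Tgfb1, the signal transducers Smad1, Smad4, Smad5, Smad6 and Smad7, and the target genes Id1, Id2 and Id3. They are 10 of the 21792 protein-coding genes of the mouse annotation used. They were chosen by name as genes of a pathway that induces blood mesoderm, with earlier results of these data known. A peak was assigned to a gene when its midpoint lay in the gene body or within 50 kb of either end, and 14 of the 4135 Gata1 peaks met this rule. The cells were mouse embryonic stem cell derivatives carrying 2 reporters, Runx1-ires-GFP and Gata1::mCherry, differentiated towards blood for 5 days as embryoid bodies and sorted as positive for both, a population that the series calls primitive erythroid. Sorted cells of several sorts were pooled, so the single Gata1 chromatin immunoprecipitation and sequencing (ChIP-seq) library is an average over those sorts. The only other library was input chromatin from the same kind of cells, whose antibody field names a rabbit IgG, and it was not analysed here.

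Bone morphogenetic proteins (BMPs) are secreted ligands that bind paired type I and type II receptors. The receptors phosphorylate the receptor-activated Smads, Smad1, Smad5 and Smad9 in the BMP branch and Smad2 and Smad3 in the TGF-beta branch. These join the common partner Smad4 and enter the nucleus, while the inhibitory Smads, Smad6 and Smad7, dampen the signal and are themselves targets of it. Id genes are classic BMP targets, and their products are helix-loop-helix proteins without a DNA-binding region that sequester E proteins such as the products of Tcf3 and Tcf12. Bmp4 is a major inducer of mesoderm and of embryonic blood.

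The peak list gives positions only, in build mm10, with every interval 400 bp wide. It holds no score, height or read count, so a site is either called or not called, depth is unknown, and a gene with no peak may carry binding below a threshold that is not given in the sources used here. With 1 library there is no replicate error and no test between conditions. Counts are therefore set beside the same count over all protein-coding genes, and no p-value is given. As a check of the antibody and the cells, the 9 reported loci of a list of known red cell genes bound by Gata1 (Gata1, Gata2, Zfpm1, Klf1, Epor, Alas2, Slc4a1, Tal1 and Nfe2) each had a peak in the same window, as did 32.0% of all protein-coding genes. Peaks measure occupancy, so they say nothing of the expression of these genes or of any marker.

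Promoter sequence from RefSeq, build GRCm38.p6 (another name for mm10), was listed for 7 of the 10 genes, in 9 windows of 300 bases that run from 250 before to 50 after a start site. Bases before the start are shown for 3 loci, 5′ to 3′ on the gene's strand. Smad5 is shown because its Gata1 peak began 18 bases beyond the end of the window of its start farthest downstream, and capitals mark a GATA word. Smad6 is shown because it has the most peaks of the 10 genes, all of them far from this window, and capitals mark a palindromic Smad-binding word that spans the start site. Tcf3, which encodes the E proteins E12 and E47 that Id proteins bind, is shown because a Gata1 peak overlapped its window, and capitals mark the 87 bases inside that peak.
Smad5, chr13:56703418-56703667, plus strand: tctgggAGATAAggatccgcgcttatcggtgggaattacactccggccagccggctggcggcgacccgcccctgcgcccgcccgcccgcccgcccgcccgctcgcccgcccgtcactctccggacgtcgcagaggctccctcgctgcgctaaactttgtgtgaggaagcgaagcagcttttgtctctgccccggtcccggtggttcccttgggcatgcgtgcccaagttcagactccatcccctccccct
Smad6, chr9:64022056-64022309, minus strand: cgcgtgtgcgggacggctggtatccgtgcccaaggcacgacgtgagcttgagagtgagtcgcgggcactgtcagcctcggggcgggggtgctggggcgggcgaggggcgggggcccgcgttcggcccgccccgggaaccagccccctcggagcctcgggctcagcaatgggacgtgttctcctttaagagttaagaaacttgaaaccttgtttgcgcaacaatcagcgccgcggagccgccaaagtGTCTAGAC
Tcf3, chr10:80433636-80433885, minus strand: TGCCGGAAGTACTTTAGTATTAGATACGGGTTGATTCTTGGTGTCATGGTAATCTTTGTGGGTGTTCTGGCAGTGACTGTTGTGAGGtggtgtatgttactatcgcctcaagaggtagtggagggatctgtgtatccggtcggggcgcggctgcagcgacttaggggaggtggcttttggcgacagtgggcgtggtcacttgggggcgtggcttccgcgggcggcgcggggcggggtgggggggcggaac

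Gata1 peaks lay near 8 of the 10 genes (80.0%), against 32.0% of all protein-coding genes. Because the genes were chosen with earlier results of these data known, this is not an independent comparison. Bmp4, Smad1, Smad4, Smad5 and Id1 each had a peak inside the gene, which makes 5 of 10 genes against 9.34% of all protein-coding genes. Id3 had its nearest peak 3.45 kb away, Smad6 23.3 kb away and Smad7 45.0 kb away. Id2 and Tgfb1 had no peak in the window. The mean number of peaks per window was 1.4 for the 10 genes and 0.479 for all protein-coding genes.

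Gene length moves with these counts, because a longer gene has a wider window. The 10 genes had a median length of 23.3 kb and all protein-coding genes 17.2 kb. Among the 16288 protein-coding genes whose length fell between those of Id1 (1.16 kb) and Smad6 (69.0 kb), 33.7% had a peak in the window and 7.37% a peak in the gene. The median length of that set was 14.9 kb, so it bounds the length but is not matched to the 10 genes, and the part of length in their counts was not tested.

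**Figure D1:**
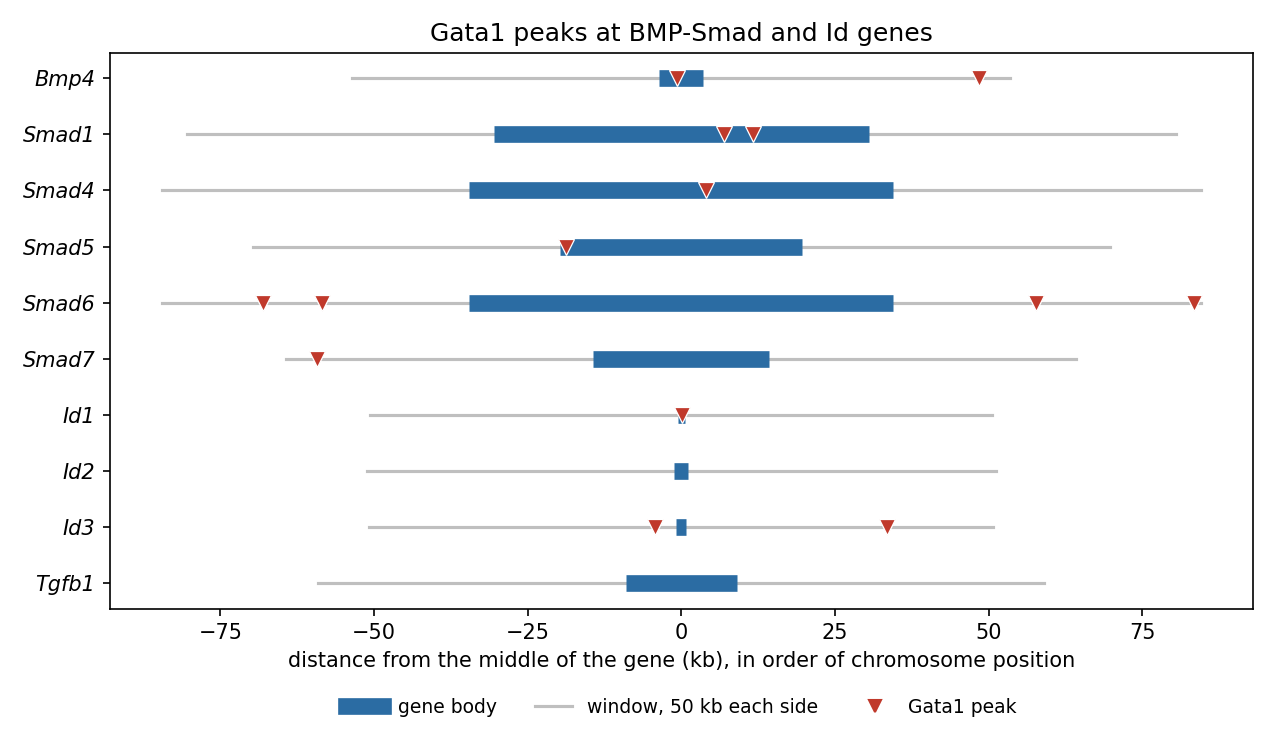
Positions of Gata1 peaks at the 10 genes, in kb from the middle of each gene, drawn to scale and in the order of chromosome position. Bars are gene bodies, grey lines the window of 50 kb on each side and triangles the 14 peaks. The peaks of Bmp4, Smad1, Smad4, Smad5 and Id1 include at least 1 inside the gene, the 4 peaks of Smad6 lie on both sides of it, and Id2 and Tgfb1 have none.

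Among the ligands, Bmp4 had 2 peaks and Tgfb1 had none. Bmp4 occupies 46383525 to 46390669 on chromosome 14, on the minus strand. Its first peak, at 46386161 to 46386560, lay in the gene, 4.31 kb downstream of the start site. That peak was 1.12 kb from Gm15222, a long noncoding RNA gene that lies within the Bmp4 body. The other, at 46435304 to 46435703, lay 44.8 kb upstream of the Bmp4 start, and Bmp4 was the nearest protein-coding gene to it. No other protein-coding gene lay in the Bmp4 window. At least 2 peaks in the window were found for 10.9% of all protein-coding genes.

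Tgfb1, which encodes the founding member of the TGF-beta family, occupies 25687002 to 25705077 on chromosome 7. Its nearest peak was 449 kb away, and 25.7% of protein-coding genes had their nearest peak at least that far. The Tgfb1 window held 6 other protein-coding genes, so the lack of a called peak there covers a gene-dense stretch.

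Of the receptor-activated Smads of the BMP branch, Smad1 and Smad5 carried peaks inside the gene and Smad9 did not. Smad1, at 79338395 to 79399428 on chromosome 8 and on the minus strand, had 2 peaks, at 79375683 to 79376082 and 79380391 to 79380790. They lay 23.5 and 18.8 kb downstream of the start site and 4.71 kb from each other. A gene body with at least 2 peaks was found for 1.52% of protein-coding genes of all lengths. Their median length was 17.2 kb against 61.0 kb for Smad1, and the part of length was not tested. The files give no exon positions, so exon and intron could not be told apart.

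Smad5, at 56703010 to 56742378 on chromosome 13 and on the plus strand, had 1 peak, at 56703735 to 56704134. Among the 7 of the 10 genes with a listed start, this peak lay closest to the start of its own gene. Its midpoint was 0.266 kb downstream of the Smad5 start farthest downstream and 0.924 kb from the lower-coordinate end of the gene. The next Gata1 peak in either direction was 408 kb away. Id1 has no listed start and is outside this ranking, and its peak lay 0.708 and 0.451 kb from the ends of its gene. The remaining receptor-activated Smad of this branch, Smad9, had no peak in its window, with the nearest at 63.2 kb.

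Smad4, the common partner of both branches, occupies 73634790 to 73703791 on chromosome 18. It had 1 peak in the gene, at 73673147 to 73673546, which was 38.6 kb from the lower-coordinate end and 30.4 kb from the higher-coordinate end. The peak thus lay in the middle part of the gene, 55.9% of the way along it. The strand of Smad4, Smad7 and Id1 is not in the tables used here, and their positions are given by coordinate end.

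The inhibitory Smads had peaks only at a distance. Neither Smad6 nor Smad7 had a peak in the gene or within 10 kb, and their 5 peaks lay between 23.3 and 48.9 kb outside. Smad6, at 63953076 to 64022085 on chromosome 9 and on the minus strand, had 4 peaks, the most of the 10 genes. At least 4 peaks were found for 1.04% of protein-coding genes of all lengths, with a median length of 17.2 kb against 69.0 kb for Smad6. A pair lay beyond the 3′ end, at 63919262 to 63919661 and 63928905 to 63929304, which are 33.6 and 24.0 kb from the gene. The other pair lay upstream, at 64045198 to 64045597 and 64070764 to 64071163, which are 23.3 and 48.9 kb from the gene. No other protein-coding gene lay in the Smad6 window, and Smad6 was the nearest protein-coding gene to 3 of the 4. The remaining peak was nearer to Lctl, by 46.2 against 48.9 kb, and lay 9.8 kb from the long noncoding RNA gene Scarletltr. Long noncoding RNA genes also lay nearer than Smad6 to the other 3 peaks. The upstream peak at 23.3 kb was 3.93 kb from 1700055C04Rik. The pair beyond the 3′ end, at 33.6 and 24.0 kb, was 16.4 and 6.8 kb from Gm36033.

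Smad7, at 75367365 to 75395935 on chromosome 18, had 1 peak, at 75322185 to 75322584, 45.0 kb below its lower-coordinate end. Dym, which encodes the Golgi protein dymeclin, was nearer to this peak, at 35.4 kb. Counted by the nearest gene alone, Smad7 had no peak. Over the whole Smad family of 8 genes, 6 had a peak in the window, against 32.0% of all protein-coding genes, and 4 had one in the gene, against 9.34%. Those without were Smad2, whose nearest peak was 738 kb away, and Smad9, while Smad3 had 1 in the gene. All of the family except Smad2, Smad3 and Smad9 are among the 10 listed genes. The 8 genes ran from 28.6 to 111 kb in length, where the median of all protein-coding genes was 17.2 kb. The part of length was not tested.

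The Id genes are short, and each had a different arrangement. Id1, at 152736251 to 152737410 on chromosome 2, had 1 peak, at 152736760 to 152737159, which lay wholly inside this 1.16 kb gene. Of the 2977 protein-coding genes of up to 2500 bp, 0.739% had a peak in the gene and 14.8% had one in the window. Id1 was the nearest protein-coding gene to its peak, although 4 others lay in its window.

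Id3, at 136143822 to 136145392 on chromosome 4 and on the plus strand, had 2 peaks and none in the gene. The nearer, at 136140169 to 136140568, lay 3.45 kb upstream of the start site and inside the long noncoding RNA gene Gm42329. The other, at 136177925 to 136178324, lay 32.7 kb beyond the Id3 gene, inside E2f2, which encodes a cell cycle transcription factor. It was 2.66 kb from a listed E2f2 start, and Asap3, which encodes a regulator of Arf GTPases, was also nearer to it than Id3, at 28.2 kb. Only the upstream peak was therefore nearest to Id3.

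Id2, at 25093799 to 25096092 on chromosome 12, had its nearest peak 1380 kb away, the farthest of the 10 genes. Of all protein-coding genes, 9.32% had a nearest peak at least that far. The remaining gene of the family, Id4, had 1 peak, 23.5 kb away. In all, 3 of 4 Id genes had a peak in the window, against 32.0% of all protein-coding genes, and 1 had one in the gene, against 9.34%.

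**Figure D2:**
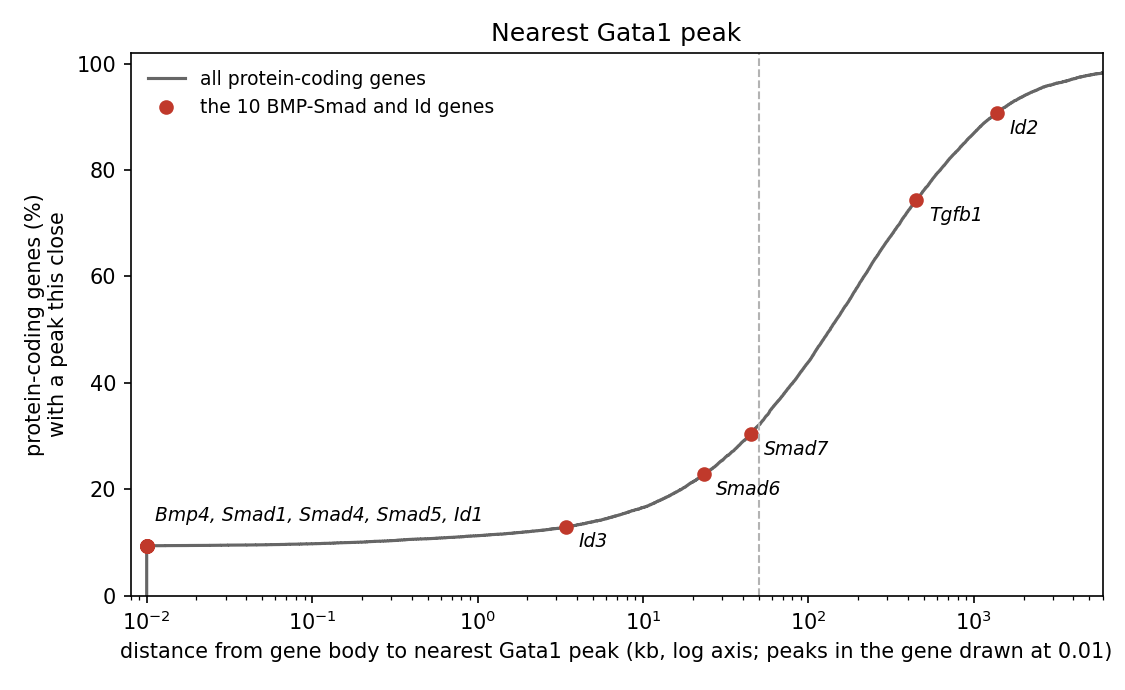
Distance from the gene body to the nearest Gata1 peak, in kb on a log axis, against the percentage of protein-coding genes with a peak at least that close (grey line). Red points are the 10 genes on this line, the dashed line marks 50 kb, and genes with a peak inside are drawn at 0.01 kb. Bmp4, Smad1, Smad4, Smad5 and Id1 sit at the level of 9.34%, Id3 is next, Smad6 lies at 22.8% and Smad7 at 30.4%, while Tgfb1 and Id2 lie at 74.3 and 90.7%.

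The 14 peaks divide into 6 inside their gene, 1 outside within 10 kb and 7 at 10 to 50 kb. For 11 of the 14 the assigned gene was the nearest protein-coding gene, and the other 3 were those at Lctl, Dym and E2f2 described above. Just inside the 50 kb limit were the peaks at 44.8 kb (Bmp4), 45.0 kb (Smad7) and 48.9 kb (Smad6), and just outside it were peaks at 52.3 kb from Id1 and 56.4 kb from Smad6.

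The count depended on the window. With 10 kb, 6 of the 10 genes had a peak, against 16.6% of all protein-coding genes, and with 1 kb, 5 had one, against 11.3%. With 100 kb, 8 had one, against 43.9%. The number of distinct peaks was 6, 7, 14 and 19 with 1, 10, 50 and 100 kb. Id2 and Tgfb1 had none in any of these windows.

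**Figure D3:**
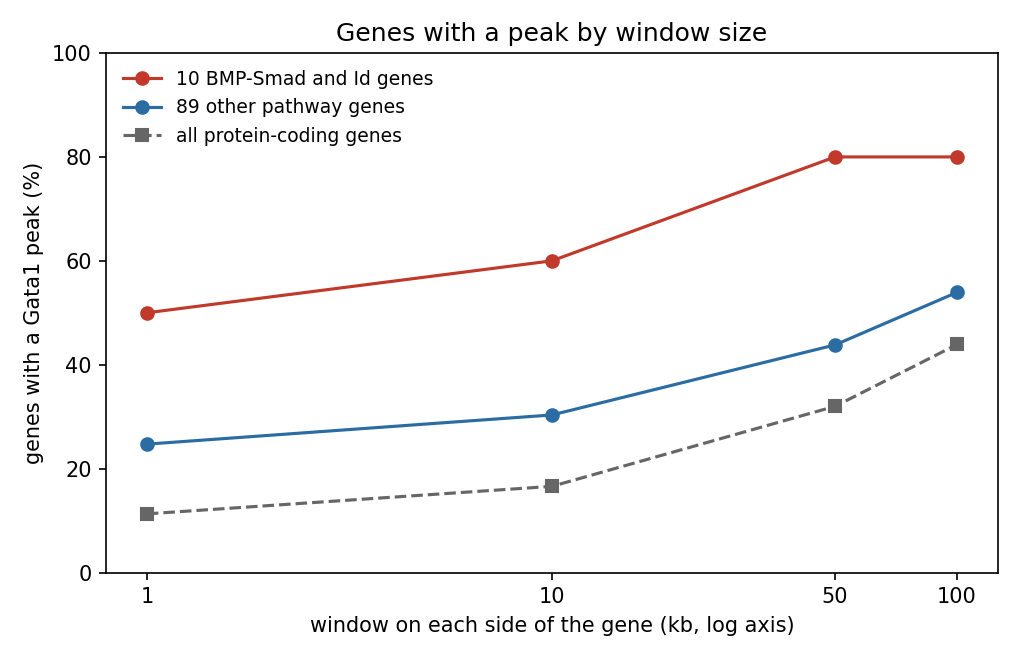
Percentage of genes with at least 1 Gata1 peak in the gene or in a window of 1, 10, 50 or 100 kb on each side (log axis), for the 10 genes, 89 other genes of the pathway and all 21792 protein-coding genes. At 50 kb the values are 80.0, 43.8 and 32.0%. The line of the 10 genes lies above both others at each window. Both lists were chosen with earlier results of these data known.

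None of the 9 promoter windows, which belong to 7 of the 10 genes, was overlapped by a Gata1 peak, where 1.65% of all 32851 listed windows were. At that share, 9 windows are too few for the lack of overlap to say much. Id1, Smad4 and Smad7 have no listed window, so overlap with their promoters was not examined. The words that GATA factors favour, which are AGATAA with its variant AGATAG and the forms TGATAA and also TGATAG that begin with another base, were searched on both strands and none contains another. They were found in 2 of the 9 windows, and in 29.8% of all windows. The Smad5 match is the capitalised AGATAA printed above, which begins 244 bases before that start, on the side of that window away from the peak. The Id3 match begins 39 bases after the start, whereas the Id3 peak lay 3.45 kb upstream.

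Of the words bound by Smads, the palindrome GTCTAGAC was in the Smad6 window, beginning 4 bases before the start site, and in 0.213% of all windows. GGCGCC, a GC-rich word found in BMP-responsive elements, was in 3 of 9 windows and in 11.9% of all. It begins 231 bases before the Id2 start, and the matches in the first and second Smad5 windows are the same site, since these windows overlap. The gene with the Smad palindrome had its Gata1 peaks at 23.3 kb and beyond, and Id2 had none. These matches are descriptions of letters, and sequence at the peaks themselves was not analysed here.

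Beyond the 10 genes, 89 other genes of the pathway were listed by role, also with earlier results of these data known. Of these 89, 39 (43.8%) had a peak in the window, against the 32.0% of all protein-coding genes. A peak lay in the gene for 20 (22.5%), against 9.34%. Without the blood transcription factor genes Tal1 and Lyl1 these shares were 42.5 and 20.7%. The median length of the 89 genes was 24.4 kb, above the 17.2 kb of all protein-coding genes, and the part of length in these shares was not tested. The 89 genes were served by 58 distinct peaks, 1 of which was shared by the neighbours Lefty1 and Lefty2. Counted by the nearest protein-coding gene alone, 25 of the 89 had a peak, against 13.8% of all protein-coding genes. Which of the peaks given by role below lay nearer to another gene is not shown.

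Ligands other than Bmp4 and Tgfb1 were near the background of all protein-coding genes, 32.0% in the window and 9.34% in the gene. Of 12 further BMP and GDF ligands, 4 had a peak in the window (33.3%) and 1 in the gene (8.33%). Gdf15, a stress-induced ligand, had 2, at 17.3 and 41.3 kb, and the close Bmp4 relative Bmp2 had none within 122 kb. Of 12 TGF-beta, activin and nodal ligands, 5 had a peak in the window (41.7%) and 1 in the gene (8.33%). Lefty2, an inhibitor of nodal signalling, had 2, at 4.0 and 42.1 kb.

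Of 13 receptors, 7 had a peak in the window (53.8%, against 32.0% of all protein-coding genes) and 4 in the gene (30.8%, against 9.34%). The 13 genes ran from 16.8 to 332 kb in length, where the median of all protein-coding genes was 17.2 kb. The part of length in these shares was not tested. Bmpr1a, a type I BMP receptor, had 2 peaks, of which 1, at 34503133 to 34503532 on chromosome 14, lay at its higher-coordinate end and 0.786 kb upstream of a listed start, and the other was 5.0 kb beyond the gene. The type II receptors Acvr2a and Acvr2b had a peak 0.696 and 1.3 kb downstream of a start site, and Acvr2b had another at 27.7 kb. Tgfbr3, the co-receptor betaglycan, had 2 in the gene and 1 at 5.8 kb. Acvr1b, a type I activin receptor, had 2, at 8.12 and 23.4 kb. Tgfbr1 and Tgfbr2, the signalling receptors for Tgfb1, had none in the window.

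Of 17 other Smads and Smad partners, 9 had a peak in the window (52.9%) and 6 in the gene (35.3%). The shares of all protein-coding genes were 32.0 and 9.34%. Those 6 genes ran from 27.9 to 333 kb in length, where the median of all protein-coding genes was 17.2 kb. The part of length in the shares of this role was not tested. Foxh1, a partner of Smads in nodal signalling, had 1 peak, at 0.106 kb below the gene. Trim33, a ubiquitin ligase that binds Smads, had 2, at 23.1 and 26.5 kb. Secreted antagonists and genes of latent TGF-beta handling had the lowest share in the window, 4 of 19 (21.1%), against 32.0%. In the gene, 3 of 19 (15.8%) had a peak, against 9.34%. Nog, Chrd and Grem1, which encode extracellular BMP antagonists, had none in the window. The 4 included Fstl3, an activin antagonist, with 1 in the gene at its 3′ end and 1 at 40.4 kb. Ltbp2 and Ltbp3, which encode latent TGF-beta binding proteins, had 2 and 3. The Ltbp2 peaks were in the gene and at 10.1 kb, and those of Ltbp3 lay at 16.3, 40.3 and 43.2 kb.

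Of 16 further targets and Id partners, 10 had a peak in the window (62.5%) and 5 in the gene (31.2%). Over all protein-coding genes these shares were 32.0 and 9.34%. That list includes Tal1 and Lyl1, blood transcription factors that pair with E proteins, with 4 and 3 peaks, and without them 8 of 14 (57.1%) had one. The first peak of each lay just downstream of a start, at 0.242 kb for Tal1 and 0.209 kb for Lyl1, and overlapped the end of its promoter window. Tcf3, the E protein gene, had 2 peaks. The one at 80433799 to 80434198 on chromosome 10 had its midpoint 0.022 kb beyond the gene and 0.363 kb upstream of a listed start, and it covers the capitals of the Tcf3 sequence above. The other lay at 19.8 kb. Msx1, a homeobox target of BMP, had 2 peaks upstream of its start, at 1.27 and 2.89 kb, and Tsc22d1, a TGF-beta-stimulated gene, had 1 in the gene and 1 at 24.7 kb. Peaks within 1 kb of either gene end were found for 2 of the 10 listed genes (Smad5 and Id1) and 7 of the 89 others, against 4.25% of all protein-coding genes. Without Tal1 and Lyl1 the others numbered 5 of 87. Any peak inside Id1 lies within 1 kb of an end, because the gene is 1.16 kb long.

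**Figure D4:**
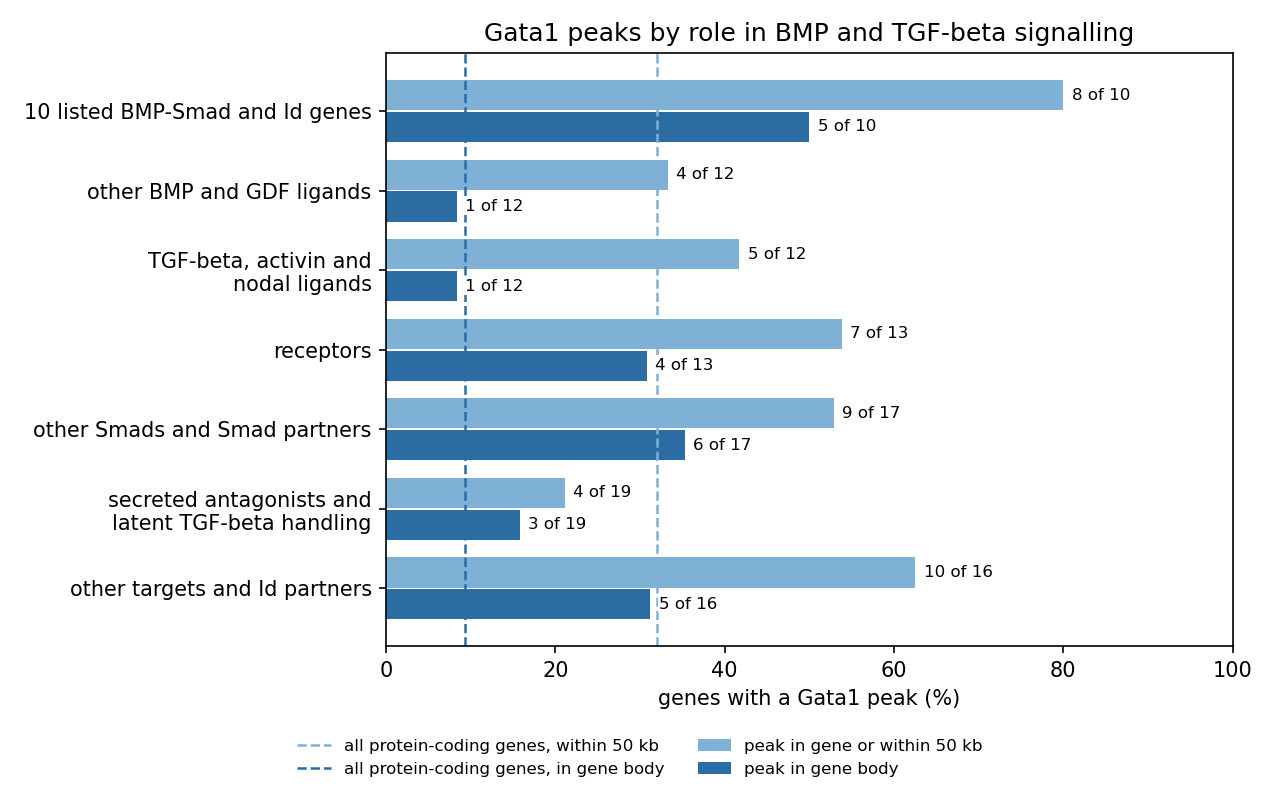
Percentage of genes in each role with a Gata1 peak in the gene or within 50 kb (light bars) and in the gene body (dark bars), with the number of genes beside each bar. Dashed lines give the same shares over all protein-coding genes, 32.0 and 9.34%. The 10 listed genes have the longest bars, 8 of 10 and 5 of 10, and secreted antagonists have the shortest light bar, 4 of 19. All these lists were chosen with earlier results of these data known. Gene length differs between the roles, and its part in these shares was not tested.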

How the data were processed

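One Gata1 ChIP-seq library and 1 input library were listed, and the peak positions of the first were analysed. Bowtie2 2.0.6, MACS2 2.0.10 and build mm10 are named, per the submitters' processing notes. The authors deposited 4135 positions with no measure of strength, so a stricter threshold could not be tried and depth is unknown. Settings and use of the control are not stated there. Genes were placed by a RefSeq table (GRCm38.p6), without 340 entries that carry scaffold positions (below 3 Mb, autosomes and X). Distances run from peak midpoint to gene body, and printed positions are 1-based. All 10 genes and all 89 others matched by symbol. Peak assignment was tested on simulated data (Python 3.11.15, numpy 2.4.6, pandas 2.3.3, matplotlib 3.10.9). Shares count whole lists and carry no sampling interval.

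The 10 genes and the lists were chosen with earlier results of these data known. Named were the 10 genes, other pathway genes with at least 2 peaks in the window or 1 within 1 kb of a gene end, and protein-coding genes nearer to a peak than the listed gene. Bmp2, Smad2, Smad3, Smad9, Id4, Lefty1, Tgfbr1, Tgfbr2, Nog, Chrd, Grem1, Bcl2l1, Ctif and noncoding genes were picked with their values in view, as was the limit of 2500 bp. One gene of the list of known Gata1 loci is not reported here. Alternatives were windows of 1, 10 and 100 kb, any overlap, the nearest gene only, peaks within 1 kb counted once and a background limited to the length range of the 10 genes.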

Additional observations from a re-analysis of the deposited data

How the results depend on the processing

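The number of the 10 genes with a peak was 8 with any overlap, with peaks within 1 kb counted once and with 100 kb, 7 by the nearest protein-coding gene, 6 with 10 kb and 5 with 1 kb. The background limited to the length range of the 10 genes moves only the share beside that count, from 32.0 to 33.7%. Distinct peaks numbered 14 and fell to 7 with 10 kb and 6 with 1 kb, by construction of a narrower window. Other pathway genes with a peak numbered 39, and 22 with 1 kb and 25 by the nearest gene, where the share of all protein-coding genes was 11.3 and 13.8%. Of 60 pairs of a listed gene and an alternative, 48 kept the number of peaks to within 1.5 times and 12 did not. Those 12 were 4 each with 1 and 10 kb and 2 each with 100 kb and by the nearest gene. The 48 are no measure of stability, because part of them could not move. Id2 and Tgfb1 had no peak under any setting, and their pairs count as kept. Counting peaks within 1 kb once could change none of the 10 genes, since no peak of theirs had another closer than 4.71 kb. No paired analysis was possible because only 1 library has a peak list and no result comes from a test. Depth could not be examined, so Id2 and Tgfb1 are only genes where no peak was called.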

Other observations

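Between 50 and 100 kb from the 10 genes lay 5 further peaks, all nearest to other protein-coding genes. Id1 had 2, at 52.3 and 74.0 kb above it, and both lay inside Bcl2l1, which encodes the survival protein Bcl-xL. Smad6 had 2, at 56.4 and 62.8 kb upstream. The second, at 64084637 to 64085036 on chromosome 9, lay inside the long noncoding RNA gene Scarletltr, and both were nearest to Lctl among protein-coding genes. With the peaks at 23.3 and 48.9 kb, 4 peaks lay in the stretch upstream of Smad6. Of these, only the peak at 23.3 kb had Smad6 as its nearest protein-coding gene, and the others were nearest to Lctl. Smad7 had 1, at 94.4 kb above it and inside Ctif, which encodes a translation factor.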
